A study of Homo sapiens with 24 samples.

Results

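The nuclear pore complex genes examined here are 30 genes for the proteins that build the nuclear pore. They were chosen by symbol from a list of pore proteins and not by a measured value, but with earlier results of these data known. They are represented by 47 of the 47323 probes on the array. Of these, 28 genes and 38 probes passed a filter on detection, out of 10882 genes and 17557 probes that passed in all. RANBP2, which forms filaments on the cytoplasmic side of the pore, was detected on 0 of 24 arrays, and NUP210, a membrane protein of the pore, on 2 of 24, so neither was tested. The 30 genes fall into 7 groups by the place of their proteins in the pore: the Y complex (9 genes), the inner ring (5), the central channel (3), the cytoplasmic face (4), the NUP98-RAE1 pair (2), the nuclear basket (3) and the membrane ring (4).

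Nuclear pores are large protein channels through the nuclear envelope, and nearly all traffic of RNA and protein between nucleus and cytoplasm passes through them. A scaffold of Y complexes and inner rings, held in the membrane by a ring of transmembrane proteins, carries flexible proteins rich in phenylalanine-glycine repeats that fill the channel and bind transport receptors. Filaments on the cytoplasmic face release exported messenger RNA, and a basket on the nuclear side takes part in import and in the approach of messenger RNA to the pore. The scaffold proteins are long-lived, while several basket and export proteins come and go from the pore.

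Total RNA of 4 lines established from Ewing sarcoma, a tumour of bone and soft tissue, was measured on Illumina expression beadchips. In each of SKNMC, TC32, TC71 and RDES, 3 samples received 5 nM pladienolide B (PlaB), a compound that binds the SF3b part of the spliceosome and inhibits splicing, for 24 h. Another 3 samples per line received 0.1% (v/v) DMSO, the vehicle, which the treatment text of the labels calls untreated. This gave 8 groups of 3 arrays, and the labels name no engineered allele in any line. Whether those 3 samples were grown separately is not in the labels, so the p-values cover just the spread among the samples at hand, and that spread may be technical. The number of arrays limits the precision.

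Levels are background-corrected, quantile-normalized probe intensities on a log2 scale, on which a difference of 1 is a change by a factor of 2. Levels of different probes cannot be set against each other, and the differences below are all PlaB minus vehicle for the same probe. The probe read for a gene is the brightest of those tested. A gene was called where limma's adjusted p, Benjamini-Hochberg over all tested probes and two-sided, was under 0.05, and errors of differences are standard errors. PlaB arrays detected 13821 to 16997 probes and vehicle arrays 16363 to 18736, and arrays within a group correlated at 0.987 to 0.994. The Ewing sarcoma markers CD99, NKX2-2, PRKCB, STEAP1 and CCND1 were detected on 24 of 24 arrays and LIPI on 2 PlaB and 7 vehicle arrays of 12 each. Their summed intensity ran from 2900 to 4870 on PlaB arrays and from 5150 to 6390 on vehicle arrays. Summed intensities of the fibroblast list ran from 440 to 745 on PlaB arrays and from 490 to 1240 on vehicle arrays, and those of the blood cell list from 375 to 527 on PlaB arrays and from 373 to 480 on vehicle arrays. The epithelial list ran from 436 to 505 with PlaB and from 440 to 503 with vehicle, and the endothelial list from 422 to 468 with PlaB and from 420 to 446 with vehicle. The blood cell markers PTPRC and CD3E were each detected on 1 array, a vehicle array, and the endothelial markers CDH5 and VWF on 0 of 24. Some other genes of these lists rose in the mean: CD14 (12 PlaB and 10 vehicle arrays) by 0.90 log2 and CD79A (10 PlaB and 11 vehicle arrays) by 0.27. ESAM (10 PlaB arrays and 1 vehicle array) rose by 0.94. It passed the detection filter through its PlaB groups alone, where it was higher, so its rise is not independent of that filter. KRT18 (8 PlaB and 12 vehicle arrays) rose by 0.26. Not called were KRT8 (5 PlaB and 5 vehicle arrays) at 0.00 and CLDN7 (2 PlaB and 3 vehicle arrays) at -0.05. CLDN5 (0 PlaB and 3 vehicle arrays), at -0.10, was not called either. EPCAM (2 PlaB and 6 vehicle arrays) did not pass the filter. Of the fibroblast list, COL1A1 stood at -0.70 log2, COL3A1 at -0.61, LUM at -0.45 and DCN at -0.20, each called lower. FAP was not called. Of the Ewing sarcoma markers, PRKCB stood at -2.01, NKX2-2 at -0.66, CCND1 at -0.52, STEAP1 at -0.42 and LIPI at -0.28, each called lower. LIPI passed the detection filter through its vehicle groups alone, where it was higher, so its fall is not independent of that filter. CD99, at 0.07, was not called. What part any of these lists has in the results was not tested. In such bulk RNA, fewer cells of a type and less RNA per cell cannot be told apart.

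In the mean of the 4 within-line differences, 11 of the 28 nuclear pore genes rose, 12 fell and 5 were not called. Of the 11, AHCTF1 and SEH1L rose on their brightest probe alone, and their other tested probes were called lower. Over all 10882 genes, 32.3% rose and 37.9% fell, 70.1% either way, so a large share of genes called is the background here. The median difference of the 28 genes was 0.0098 log2, beside -0.030 over all genes, and the median size of the difference, without its sign, was 0.39 log2, beside 0.26 over all genes. This comparison was not matched for detection: 23 of the 28 genes were detected on all 24 arrays, as were 8942 of the 17557 tested probes. A fit of those 8942 probes alone called 3870 higher and 3173 lower. A change of at least 1 log2 was reached by 3 of the 28: NUP50, a basket protein, RAE1, a messenger RNA export factor, and NUP88, a protein of the cytoplasmic face. Over all genes, 5.70% reached that size. By rank among the 10882 genes, NUP50 had rise number 13 and RAE1 rise number 143, counted from the largest rise, and NUP88 had fall number 27, counted from the largest fall. Of the 7 subcomplexes, the inner ring had every gene called in the same direction, with 5 of 5 lower. Members of the Y complex, the cytoplasmic face, the basket and the membrane ring were called in both directions.

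**Figure D1:**
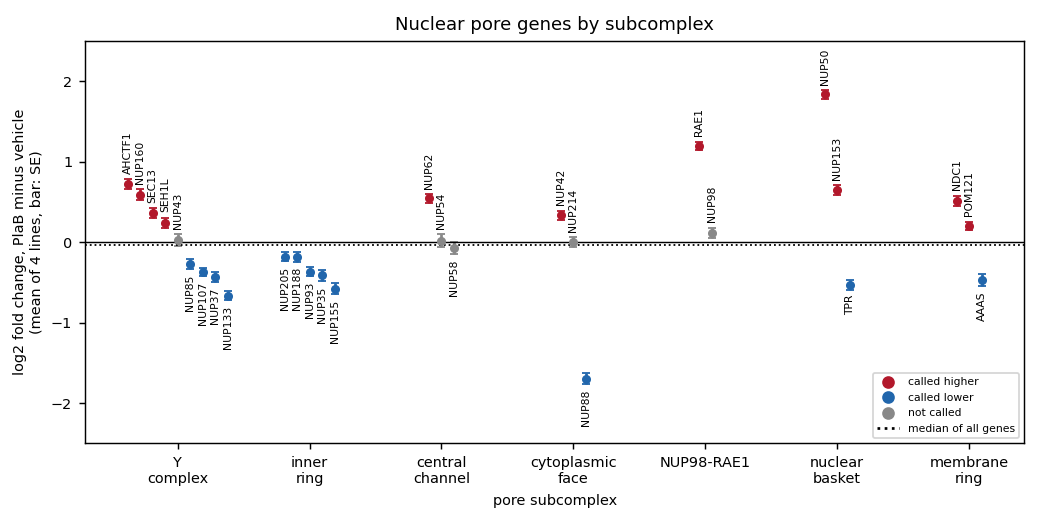
Log2 fold change (PlaB minus vehicle, mean of the 4 lines, bars show the standard error) of the 28 tested nuclear pore genes, arranged by subcomplex. Red marks genes called higher (11), blue genes called lower (12) and grey genes not called (5), and the dotted line is the median of all genes. NUP50 at 1.83 ± 0.05, RAE1 at 1.19 ± 0.05 and NUP88 at -1.69 ± 0.07 lie farthest from 0, and the 5 inner ring genes all lie below it.

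The balance of rises and falls differed with the scaling of the arrays. Under quantile normalization the median of all probes was -0.02 log2 in the mean of the lines, with 5432 probes called higher and 6090 lower. When each array was instead centred on its own median, the median of all probes was -0.14, with 2914 higher and 8345 lower, and 7 pore genes were called higher and 14 lower. With centring on the always-detected probes (those detected on each of the 24 arrays), the median was 0.07, with 6999 higher and 5175 lower, and 12 pore genes were called higher and 12 lower. SEC13, NUP42 and POM121 were called higher in the mean but lost the call under median centring, and SEH1L, called higher at 0.24 ± 0.07, stood at -0.05 there without a call. NUP214, uncalled at 0.00 ± 0.06, stood at -0.27 with a call under median centring, where NUP58 was called lower as well (-0.25), and NUP43 was called higher (0.18) with centring on the always-detected probes. The other pore genes called in the mean kept their direction and their call under the 6 ways of scaling.

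To show what lies before the genes that moved most, the 150 bases upstream of the annotated start are printed for the 2 genes with the largest rises and the 2 with the largest falls, read 5′ to 3′ on the gene's strand from RefSeq (GRCh38.p14). Capitals mark matches to the searched motifs named further on. The NUP50 stretch lies at chr22:45163775-45163924 on the plus strand, before 1 of 2 annotated starts, and that of RAE1 at chr20:57351392-57351541 on the plus strand. The NUP88 stretch lies at chr17:5419663-5419812 and that of NUP133 at chr1:229508342-229508491, both on the minus strand.
NUP50: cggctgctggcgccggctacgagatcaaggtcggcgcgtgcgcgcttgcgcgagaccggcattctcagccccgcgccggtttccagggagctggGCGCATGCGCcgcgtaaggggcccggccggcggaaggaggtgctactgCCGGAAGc
RAE1: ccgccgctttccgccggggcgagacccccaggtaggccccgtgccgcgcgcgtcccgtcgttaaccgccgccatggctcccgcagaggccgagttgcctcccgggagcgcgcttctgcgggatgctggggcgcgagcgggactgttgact
NUP88: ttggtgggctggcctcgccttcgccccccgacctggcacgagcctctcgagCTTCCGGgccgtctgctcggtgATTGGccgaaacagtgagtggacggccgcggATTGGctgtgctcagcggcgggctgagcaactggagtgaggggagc
NUP133: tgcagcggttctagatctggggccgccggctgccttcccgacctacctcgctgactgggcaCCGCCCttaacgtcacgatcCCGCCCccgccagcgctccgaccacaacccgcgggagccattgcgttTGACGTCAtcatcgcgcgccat

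Windows of 250 bases before to 50 bases after the start were given for 28 of the 30 genes, and AHCTF1 and NUP43 had none. The 250 bases before the start were searched on both strands for 7 motifs. The ETS motif CCGGAAG was present in 36.1% of the 36 windows of pore genes, against 8.5% of all 35116 windows and 14.0% of the 12735 windows of tested genes. It was found before 5 of the 10 genes with a window that rose and before 4 of the 12 that fell. The NRF1 motif GCGCATGCG was present in 8.3% of pore windows, 1.6% of all windows and 2.8% of those of tested genes. The CRE motif TGACGTCA, which reads the same on both strands, was likewise present in 8.3% of pore windows, against 1.6% of all windows and 2.6% of those of tested genes. The NFY motif CCAAT was present in 36.1% of pore windows, 32.0% of all windows and 33.4% of those of tested genes, and before 1 of the 10 genes that rose and 7 of the 12 that fell. The SP motif GGGCGG was present in 47.2% of pore windows, which lies above the 42.6% of all windows and below the 62.8% of those of tested genes. The YY1 motif AAGATGGC was present in 2.8% of pore windows, 1.4% of all windows and 1.8% of those of tested genes, and the E2F motif TTCCCGCC in 0.0% of pore windows, 2.7% of all windows and 4.2% of those of tested genes. The NUP50 stretch holds an ETS match and an NRF1 match that reads on both strands, with the overlapping letters printed as 1 run of capitals. The NUP88 stretch holds an ETS match and 2 NFY matches, the NUP133 stretch 2 SP matches and a CRE match, and the RAE1 stretch holds none of these motifs. A match is a description of the letters, and binding was not measured.

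**Figure D2:**
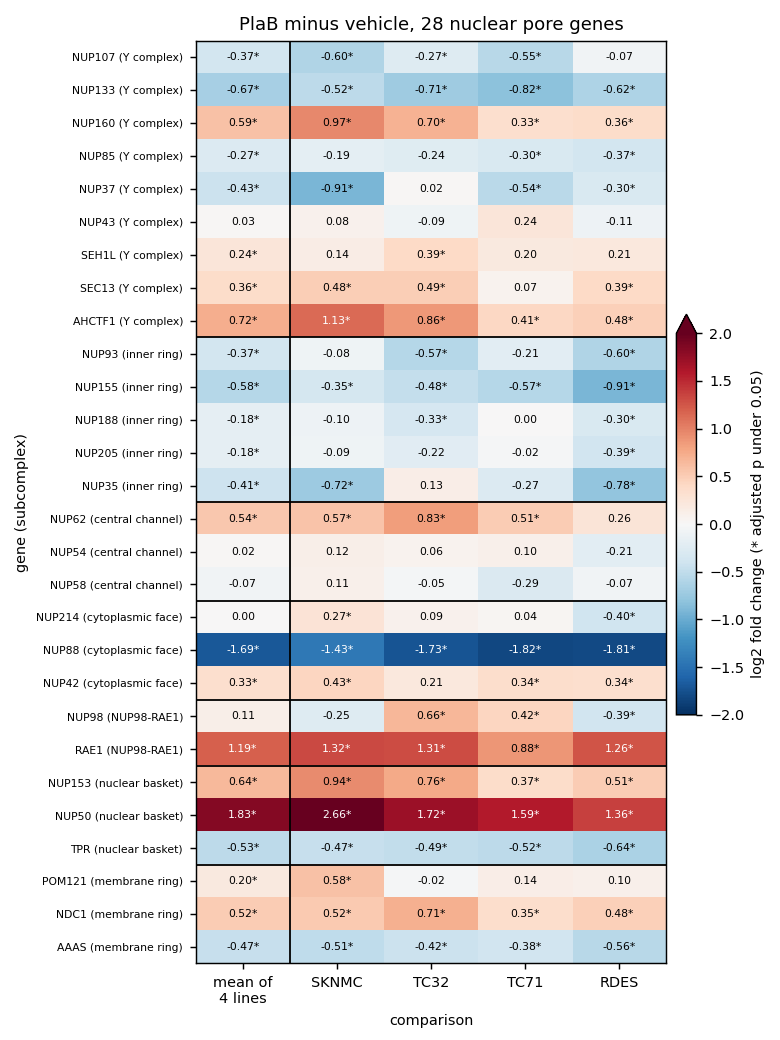
Log2 fold change (PlaB minus vehicle) of each of the 28 tested nuclear pore genes in the mean of the 4 lines and in each line, as colour and number, ordered by subcomplex. A star marks an adjusted p under 0.05. NUP50, RAE1, AHCTF1, NUP160, NUP153 and NDC1 are starred red in every line, and NUP88, NUP133, NUP155, TPR and AAAS are starred blue in every line.

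Within single lines, 17 to 21 of the 28 pore genes were called, 19 in SKNMC (57.7% of all genes), 18 in TC32 (45.4%), 17 in TC71 (48.2%) and 21 in RDES (43.9%). In SKNMC 11 of 28 rose and 8 fell (26.3% and 31.4% over all genes), and in TC32 10 rose and 8 fell (21.6% and 23.8% over all genes). In TC71 9 rose and 8 fell (22.9% and 25.3% over all genes), and in RDES 8 rose and 13 fell (21.4% and 22.5% over all genes). The median difference was 0.092 log2 in SKNMC, 0.040 in TC32, 0.059 in TC71 and -0.159 in RDES, beside -0.037, -0.018, -0.017 and -0.0049 over all genes in the same order of lines. The number that fell in TC32 dropped to 5 without TC32 vehicle replicate 2. The number that rose in TC71 dropped to 4 without TC71 PlaB replicate 3, and the number that rose in RDES to 5 without RDES vehicle replicate 1. With median centring 7 rose and 12 fell in SKNMC, 6 rose and 11 fell in TC32, 3 rose and 11 fell in TC71, and 4 rose and 13 fell in RDES. Cyclic loess gave 5 higher and 9 lower in TC71.

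In all 4 lines 6 genes rose, beside 10.0% of all genes, and 5 fell, beside 10.1%. The 6 were NUP50, RAE1, AHCTF1, NUP153, NUP160 and NDC1, and the 5 were NUP88, NUP133, NUP155, TPR and AAAS. AHCTF1 counts here on its brightest probe alone. A second AHCTF1 probe, annotated to the same transcript, was called lower in all 4 lines (-1.33 to -0.81). The rises in all 4 lines depended on the scaling: 2 genes (NUP50 and RAE1) kept them under median centring, 3 (with AHCTF1) under cyclic loess and 4 (with AHCTF1 and NUP153) with centring on the always-detected probes. NUP88, NUP133, NUP155 and TPR were called lower in all 4 lines under each of the 6 ways of scaling, and AAAS under 2 of them. AAAS entered the test through its vehicle groups alone, as given below. In every line the 3 PlaB arrays lay above the 3 vehicle arrays for 5 genes (NUP50, RAE1, AHCTF1, NUP62 and NDC1), beside 10.7% of all genes. They lay below them in every line for 4 genes (NUP88, NUP133, NUP155 and TPR), beside 11.1% of all genes. NUP43, NUP54 and NUP58 were called in no line. NUP50, RAE1, AHCTF1, NUP88, NUP133 and TPR kept their calls in every line whichever of the 24 arrays was left out. AHCTF1 did lose its TC71 call under median centring. NUP153, NUP160, NDC1, NUP155 and AAAS each lost a call in at least 1 line without 1 array, as given with each gene.

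In the nuclear basket, NUP50 rose more than any other pore gene. NUP50 is a mobile protein that binds importin alpha and helps release imported cargo. Its level in SKNMC was 8.40, 8.64 and 8.40 with PlaB, against 5.71, 5.71 and 6.02 with vehicle. In TC32 it was 7.75, 7.49 and 7.61 with PlaB, against 5.88, 5.92 and 5.90 with vehicle. Every PlaB array of these lines was above every vehicle array by more than 1 log2. In TC71 the level of NUP50 was 7.82, 7.77 and 7.68 with PlaB, against 6.25, 6.10 and 6.16 with vehicle, and in RDES it was 7.06, 7.00 and 7.10 with PlaB, against 5.63, 5.80 and 5.64 with vehicle. The groups were again apart. NUP50 rose by 1.83 ± 0.05 log2 in the mean, a 3.56-fold difference (limma adjusted p = 9.8e-23), with 6.33-fold in SKNMC, 3.28-fold in TC32, 3.01-fold in TC71 and 2.58-fold in RDES. Across the 6 ways of scaling the array data the mean rise lay between 1.22 and 1.83. The value rests on 1 probe, since the other NUP50 probes were detected on 0 and 2 of 24 arrays.

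NUP153, a repeat-rich basket protein that anchors the basket and binds import receptors, also rose. In SKNMC its level was 8.65, 8.77 and 9.05 with PlaB, against 8.08, 7.90 and 7.67 with vehicle. TC32 gave levels of 7.79, 7.76 and 7.73 with PlaB, against 7.09, 6.85 and 7.05 with vehicle. The groups did not overlap in these lines. The level of NUP153 in TC71 was 8.05, 7.73 and 8.02 with PlaB, against 7.45, 7.44 and 7.81 with vehicle, where the highest vehicle array lay above the lowest PlaB array, and the call there (0.37) was lost without TC71 vehicle replicate 1 or 2 or PlaB replicate 1 or 3 (0.30 to 0.32), and likewise with median centring (0.18) or cyclic loess (0.28). In RDES it was 8.12, 7.80 and 8.08 with PlaB, against 7.51, 7.51 and 7.45 with vehicle, without overlap. The mean rise of NUP153 was 0.64 ± 0.06 log2 (adjusted p = 3e-10).

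TPR, the coiled-coil protein that makes up the basket's filaments, moved the other way. The SKNMC arrays read 8.19, 7.90 and 8.01 with PlaB, against 8.50, 8.48 and 8.53 with vehicle. The TC32 arrays read 7.77, 7.80 and 7.56 with PlaB, against 8.20, 8.11 and 8.29 with vehicle. PlaB arrays lay lower without overlap. TC71 arrays read 7.39, 7.07 and 7.26 with PlaB, against 7.74, 7.57 and 7.99 with vehicle for TPR, and in RDES it was 7.27, 7.24 and 7.00 with PlaB, against 7.78, 7.94 and 7.70 with vehicle. The groups stood apart in these lines too. TPR fell by 0.53 ± 0.06 log2 in the mean (adjusted p = 3.2e-09), and its 4 within-line differences, from -0.64 ± 0.12 to -0.47 ± 0.12, were not called as different between lines (limma F-test, adjusted p = 0.80). The basket thus held 2 rises and 1 fall in the mean, and so it did in each line, apart from the TC71 rise of NUP153 under the scalings named.

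**Figure D3:**
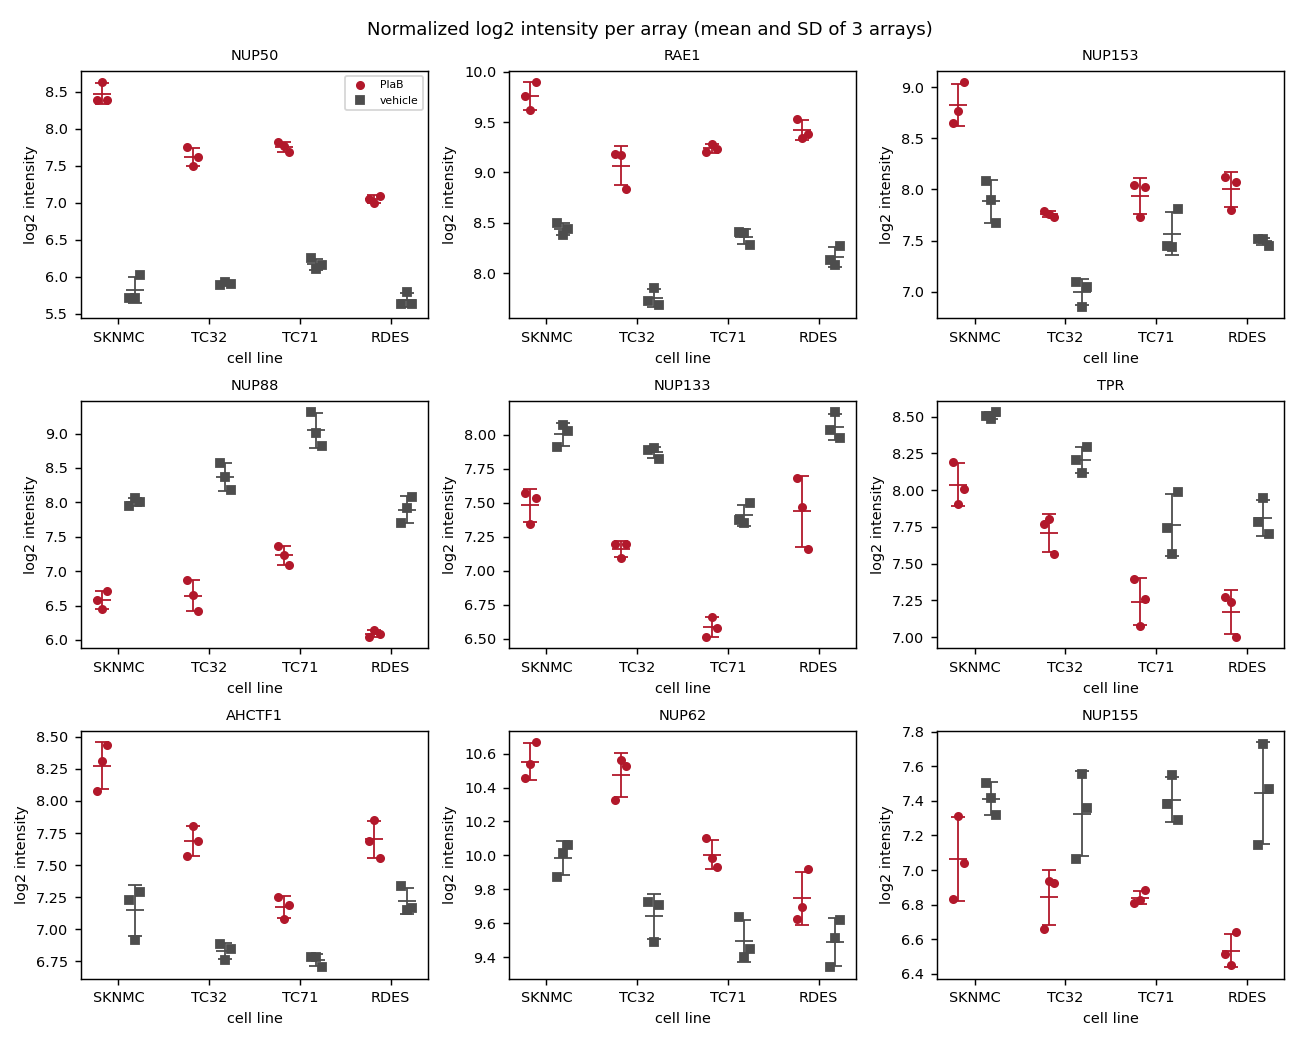
Normalized log2 intensity (vertical axis) on each array for 9 pore genes in the 4 lines (horizontal axis), PlaB as red circles left of vehicle as grey squares, with the mean and SD of 3 arrays. NUP50, RAE1, AHCTF1 and NUP62 have every PlaB array above every vehicle array within each line, NUP88, NUP133, TPR and NUP155 have every one below, and NUP153 overlaps in TC71.

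On the cytoplasmic face, NUP88 fell more than any other pore gene. NUP88 is the partner that holds NUP214 at the pore and takes part in nuclear export. Its level in SKNMC was 6.59, 6.45 and 6.71 with PlaB, against 7.95, 8.07 and 8.01 with vehicle. Levels in TC32 were 6.87, 6.65 and 6.42 with PlaB, against 8.57, 8.37 and 8.17 with vehicle. The PlaB arrays were all more than 1 log2 below the vehicle arrays. For NUP88 in TC71 the level was 7.37, 7.23 and 7.09 with PlaB, against 9.31, 9.00 and 8.82 with vehicle, and in RDES it was 6.04, 6.14 and 6.09 with PlaB, against 7.69, 7.92 and 8.08 with vehicle. The same gap held there. NUP88 fell by 1.69 ± 0.07 log2 in the mean, a 3.23-fold difference (adjusted p = 1.1e-19), and its within-line differences were -1.43 ± 0.13 in SKNMC, -1.73 ± 0.13 in TC32, -1.82 ± 0.13 in TC71 and -1.81 ± 0.13 in RDES. No difference between lines was called (F-test adjusted p = 0.23). Over the 6 ways of scaling the mean difference ran from -1.94 to -1.27.

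NUP214, the repeat-rich protein that NUP88 anchors and that binds the export receptor XPO1, had no call in the mean, at 0.00 ± 0.06 log2 (95% interval -0.12 to 0.12). Its arrays in SKNMC read 7.44, 7.49 and 7.59 with PlaB, against 7.22, 7.22 and 7.26 with vehicle, a call upward at 0.27 ± 0.12 (adjusted p = 0.048) that stood at -0.05 under median centring. That call was lost, with differences of 0.23 to 0.31, when any of the 6 SKNMC arrays was left out. In RDES it was 6.47, 6.60 and 6.74 with PlaB, against 7.14, 6.90 and 6.98 with vehicle, so that NUP214 fell by 0.40 ± 0.12 log2 there (adjusted p = 0.0055). The groups did not overlap in either line, and the responses of SKNMC and RDES differed by 0.68 ± 0.16 log2 (adjusted p = 0.0028). In TC32 the level of NUP214 was 6.85, 7.19 and 7.24 with PlaB, against 7.04, 6.92 and 7.04 with vehicle, and in TC71 it was 6.65, 6.50 and 6.75 with PlaB, against 6.46, 6.50 and 6.80 with vehicle. The groups overlapped in those lines and neither difference was called. NUP42, which stimulates the export helicase DDX19 at the pore, rose by 0.33 ± 0.06 log2 in the mean (adjusted p = 2.1e-05) but stood at 0.06 under median centring without a call and was then called in no single line. Its second tested probe rose as well, at 0.19 ± 0.06.

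RAE1, a messenger RNA export factor that binds NUP98, rose in every line. SKNMC gave 9.75, 9.62 and 9.90 with PlaB, against 8.50, 8.38 and 8.44 with vehicle. In TC32 it was 9.19, 9.18 and 8.84 with PlaB, against 7.72, 7.86 and 7.69 with vehicle. The nearest arrays of the treatments were far apart. The level of RAE1 in TC71 was 9.20, 9.29 and 9.23 with PlaB, against 8.41, 8.40 and 8.28 with vehicle, and in RDES it was 9.53, 9.34 and 9.38 with PlaB, against 8.14, 8.08 and 8.27 with vehicle. No array of the 2 treatments overlapped. RAE1 rose by 1.19 ± 0.05 log2 in the mean, a 2.28-fold difference (adjusted p = 2.9e-18), and by 0.88 ± 0.11 in TC71, its smallest response. Its second tested probe gave 1.17 ± 0.07 (adjusted p = 5.5e-15).

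NUP98 is a mobile repeat-rich protein made from a precursor that also yields a Y complex protein, NUP96. Its response had opposite signs in the lines and no call in the mean (0.11 ± 0.07, adjusted p = 0.14). In TC32 its level was 5.52, 5.07 and 5.48 with PlaB, against 4.62, 4.71 and 4.75 with vehicle, and in TC71 it was 4.82, 5.07 and 5.13 with PlaB, against 4.64, 4.54 and 4.57 with vehicle. NUP98 rose in both lines, by 0.66 ± 0.13 and 0.42 ± 0.13 log2, without overlap of arrays. In RDES the level was 5.20, 4.85 and 4.86 with PlaB, against 5.30, 5.69 and 5.09 with vehicle, and NUP98 fell by 0.39 ± 0.13 log2 (adjusted p = 0.02) with overlap of arrays. Without RDES vehicle replicate 2 that difference was -0.22 and not called, and without RDES PlaB replicate 2 or 3 it was -0.33 and not called. The TC71 call was lost without TC71 PlaB replicate 3 (0.36) and with median centring (0.33), and the RDES call with no filter, with each line fitted alone and with the tested probes averaged (-0.20). In the mean NUP98 was called without TC32 PlaB replicate 2 or RDES vehicle replicate 2, at 0.15 each, and with the tested probes averaged, at 0.13. In SKNMC its level was 4.72, 4.79 and 4.72 with PlaB, against 5.00, 5.00 and 4.99 with vehicle, with a difference of -0.25 ± 0.13 that was not called (adjusted p = 0.11) although the arrays did not overlap. NUP98 was called lower there with median centring (-0.52) and with each line fitted alone (-0.25). The 2 other tested NUP98 probes differed in the mean, with -0.05 ± 0.08 (not called) and 0.32 ± 0.06 (called), and in RDES they stood at -0.25 ± 0.17 and 0.03 ± 0.11, neither called. In SKNMC these probes stood at -0.36 ± 0.17 and 0.26 ± 0.11, neither called. The first was not called in TC32 (0.18) or TC71 (0.24), while the second was called higher in TC32 (0.29) and TC71 (0.71). The 2 probes were detected on 22 and 17 of 24 arrays. The probe read for NUP98 was detected on 24 of 24 arrays but was dim, with a mean level of 4.96. Over the 6 ways of scaling its difference ran from 0.25 to 0.69 in TC32 and from -0.53 to -0.15 in RDES.

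In the Y complex, the scaffold that forms the outer rings of the pore, 4 of 9 genes rose and 4 fell, beside 32.3% and 37.9% of all genes. Among these rises, those of AHCTF1 and SEH1L hold for the brightest probe alone, since their other tested probes were called lower. AHCTF1, whose protein ELYS binds chromatin and starts pore assembly after mitosis, had the largest rise on its brightest probe. Its level in SKNMC was 8.08, 8.31 and 8.44 with PlaB, against 7.23, 6.92 and 7.29 with vehicle. TC32 gave levels of 7.57, 7.81 and 7.69 with PlaB, against 6.88, 6.76 and 6.84 with vehicle. The groups were far apart there. For AHCTF1 the TC71 arrays read 7.25, 7.08 and 7.19 with PlaB, against 6.79, 6.79 and 6.70 with vehicle, and in RDES it was 7.69, 7.85 and 7.56 with PlaB, against 7.34, 7.15 and 7.17 with vehicle, again without overlap. The mean rise of AHCTF1 on this probe was 0.72 ± 0.06 log2 (adjusted p = 1.8e-12). In TC71 the difference of 0.41 stood at 0.18 under median centring and was not called (adjusted p = 0.32). A second AHCTF1 probe, annotated to the same transcript, went the other way and fell by 1.11 ± 0.09 log2 (adjusted p = 1.5e-12). That probe stood at -1.13 ± 0.17 in SKNMC, -0.81 ± 0.17 in TC32, -1.33 ± 0.17 in TC71 and -1.18 ± 0.17 in RDES, each called. The direction of AHCTF1 therefore depends on the probe read.

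NUP160, the large subunit at the head of the Y, rose by 0.59 ± 0.06 log2 (adjusted p = 2.3e-09). In SKNMC its level was 8.89, 8.81 and 8.95 with PlaB, against 7.85, 8.13 and 7.77 with vehicle. The TC32 arrays read 8.32, 8.26 and 8.23 with PlaB, against 7.55, 7.37 and 7.79 with vehicle. These were its largest responses, without overlap. In TC71 the level of NUP160 was 7.73, 7.35 and 7.89 with PlaB, against 7.48, 7.19 and 7.31 with vehicle, with overlap, and in RDES it was 8.30, 7.99 and 8.20 with PlaB, against 7.78, 7.77 and 7.85 with vehicle, without overlap. The call in TC71 (0.33 ± 0.13, adjusted p = 0.039) was lost under median centring (0.14), centring on the always-detected probes (0.28) and cyclic loess (0.23), with no filter and with each line fitted alone. That call was also lost without TC71 vehicle replicate 2 or 3 or PlaB replicate 1 or 3 (0.21 to 0.32). The RDES call (0.36 ± 0.13) was lost without RDES vehicle replicate 1 or 2 or PlaB replicate 1 or 3 (0.29 to 0.35), under median centring (0.25), under cyclic loess (0.31) and with no filter. In TC32 the difference of 0.70 stood at 0.34 under median centring and was not called (adjusted p = 0.068). SEC13, which also coats secretory vesicles, rose by 0.36 ± 0.06 log2, with 0.07 ± 0.12 in TC71 and no call there. Its RDES call (0.39 ± 0.12) was lost without RDES vehicle replicate 1 (0.32) or PlaB replicate 1 (0.22). Median centring left SEC13 with no call in a single line (0.26 in SKNMC, 0.14 in TC32 and 0.26 in RDES). Its second tested probe gave 0.11 ± 0.07 in the mean without a call, and averaging both probes ended the SKNMC call (0.25) and the RDES call (0.23).

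NUP133, which joins the stems of neighbouring Y complexes, was the largest fall in the Y complex. The SKNMC arrays read 7.57, 7.34 and 7.53 with PlaB, against 7.91, 8.07 and 8.02 with vehicle. Levels in TC32 were 7.20, 7.09 and 7.20 with PlaB, against 7.88, 7.90 and 7.82 with vehicle. The PlaB arrays were lower throughout. TC71 arrays read 6.52, 6.66 and 6.58 with PlaB, against 7.37, 7.35 and 7.49 with vehicle for NUP133, and in RDES it was 7.68, 7.47 and 7.16 with PlaB, against 8.03, 8.16 and 7.97 with vehicle. The groups stood apart in these lines as well. NUP133 fell by 0.67 ± 0.06 log2 in the mean (adjusted p = 5.7e-12), with no difference between lines called (F-test adjusted p = 0.38).

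NUP37, a small subunit attached to NUP160, fell by 0.43 ± 0.06 log2 in the mean (adjusted p = 2e-07), and the lines differed. Its arrays in SKNMC read 7.55, 7.61 and 7.56 with PlaB, against 8.55, 8.73 and 8.17 with vehicle. In TC71 it was 9.18, 9.05 and 9.12 with PlaB, against 9.63, 9.50 and 9.85 with vehicle. PlaB arrays lay lower in both lines. In RDES the level of NUP37 was 8.73, 8.77 and 8.72 with PlaB, against 9.04, 9.20 and 8.88 with vehicle, also without overlap, and in TC32 it was 8.50, 8.70 and 8.72 with PlaB, against 8.62, 8.66 and 8.58 with vehicle, with overlap. The TC32 difference was 0.02 ± 0.12, not called, and stood at -0.36 with a call under median centring. The RDES call (-0.30 ± 0.12, adjusted p = 0.048) was lost in 16 of the 24 fits that left out 1 array, with -0.22 without RDES vehicle replicate 2. NUP107, which links the stem of the Y to NUP133, fell by 0.37 ± 0.05 in the mean and was at -0.07 ± 0.10 in RDES, uncalled. Its TC32 call (-0.27) was lost without TC32 vehicle replicate 1 or 3 or PlaB replicate 1 or 3 (-0.27 to -0.19). NUP85, another Y subunit, fell by 0.27 ± 0.06 in the mean and was called in TC71 and RDES. The TC71 call of NUP85 stood at -0.20 without TC71 vehicle replicate 1 and the RDES call at -0.24 without RDES vehicle replicate 1, neither called. With median centring NUP85 was called lower in SKNMC (-0.37) and TC32 (-0.58) as well. NUP43, detected on 6 PlaB and 8 vehicle arrays of 12 each, had no call at 0.03 ± 0.07.

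SEH1L, which the Y complex shares with a nutrient-sensing complex, rose by 0.24 ± 0.07 log2 in the mean (adjusted p = 0.0022) on its brightest probe, with -0.05 under median centring. Its 2 other tested probes fell, by 0.78 ± 0.06 log2 (adjusted p = 4.2e-12) and 0.54 ± 0.10 log2 (adjusted p = 1.2e-05), although the probe with the larger fall is annotated to the same transcript as the brightest one. In SKNMC the probe with the larger fall averaged 6.09 ± 0.12 log2 with PlaB, against 7.06 ± 0.26 with vehicle (SD, n = 3), and the brightest averaged 6.63 ± 0.23 with PlaB, against 6.49 ± 0.24 with vehicle. Of the 8 pore genes with at least 2 tested probes, AHCTF1 and SEH1L had probes called in opposite directions in the mean. The other 20 tested genes were read from 1 tested probe each.

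**Figure D4:**
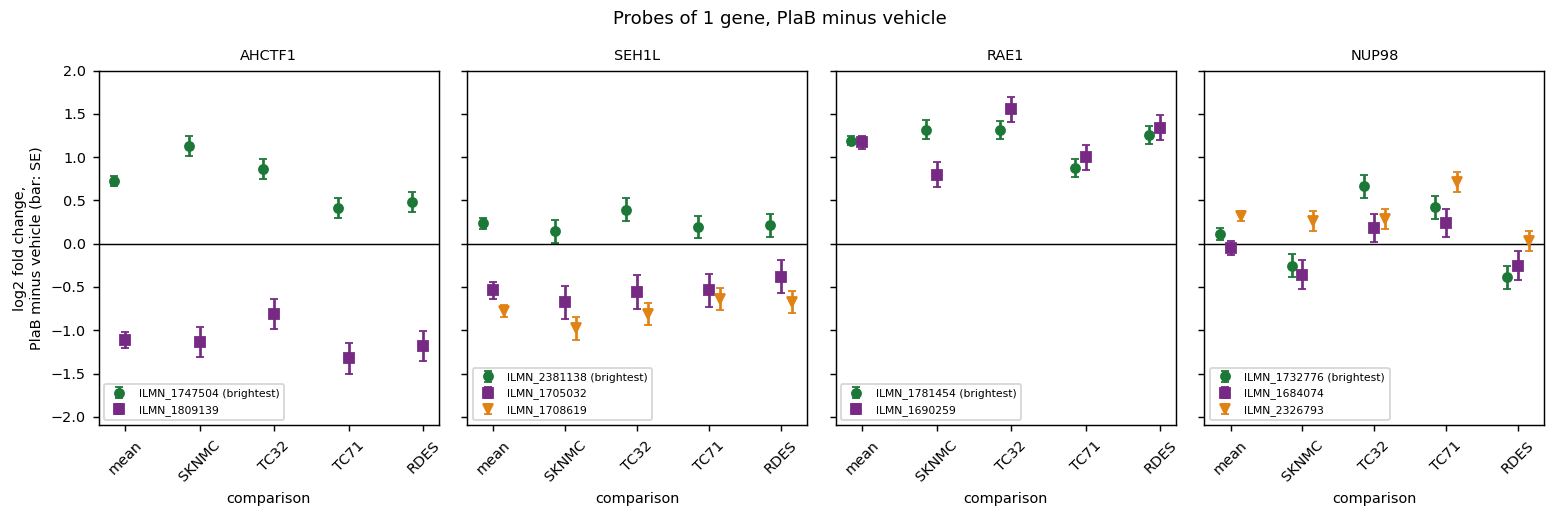
Log2 fold change (PlaB minus vehicle, bars show the standard error) of each tested probe of AHCTF1, SEH1L, RAE1 and NUP98, in the mean of the lines and in each line. The AHCTF1 probes lie on opposite sides of 0 in every line, as does the brightest SEH1L probe against the other 2, while the 2 RAE1 probes lie together at 1.19 and 1.17 in the mean.

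In the inner ring, the part of the scaffold that encircles the channel, 5 of 5 genes fell in the mean, beside 37.9% of all genes. Their median difference was -0.37 log2. All 5 were called lower in RDES (22.5% of all genes), 3 in TC32 (23.8%), 2 in SKNMC (31.4%) and 1 in TC71 (25.3%), and 0 were called higher in any line. Under median centring 4 were called lower in SKNMC, 4 in TC32 and 3 in TC71. NUP155, which ties the inner ring to the membrane, was the largest fall and the inner ring gene called in every line. SKNMC gave 6.83, 7.31 and 7.04 with PlaB, against 7.50, 7.42 and 7.32 with vehicle. In TC32 it was 6.66, 6.94 and 6.93 with PlaB, against 7.06, 7.56 and 7.36 with vehicle. PlaB arrays lay lower, in SKNMC by a narrow margin between the nearest arrays. For NUP155 the TC71 arrays read 6.81, 6.83 and 6.88 with PlaB, against 7.38, 7.55 and 7.29 with vehicle, and in RDES it was 6.51, 6.45 and 6.64 with PlaB, against 7.14, 7.73 and 7.47 with vehicle. Its widest gap was in RDES. NUP155 fell by 0.58 ± 0.07 log2 in the mean (adjusted p = 1.2e-08). Its SKNMC call (-0.35 ± 0.14) was lost without SKNMC vehicle replicate 1 or 2 or PlaB replicate 1 or 3 (-0.35 to -0.23), and its TC32 call (-0.48 ± 0.14) without TC32 vehicle replicate 2 (-0.37).

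NUP93, the hub that links the inner ring to the channel proteins, fell by 0.37 ± 0.05 log2 in the mean, with -0.57 ± 0.11 in TC32 and -0.60 ± 0.11 in RDES, both called, and -0.08 ± 0.11 in SKNMC and -0.21 ± 0.11 in TC71, not called. That contrast depended on the scaling: NUP93 was called lower in SKNMC (-0.37) and TC71 (-0.40) too with median centring, and in TC71 (-0.30) with cyclic loess. NUP35, which bends and binds the pore membrane, fell by 0.41 ± 0.07 in the mean, by 0.72 ± 0.14 in SKNMC and by 0.78 ± 0.14 in RDES. In TC32 NUP35 stood at 0.13 ± 0.14 and was not called, and its second tested probe gave -0.08 ± 0.06 in the mean without a call. That second probe was dim, detected on 15 of 24 arrays, so it can show little. The large scaffold proteins NUP188 and NUP205 had the smallest falls, -0.18 ± 0.06 (adjusted p = 0.009) and -0.18 ± 0.06 (adjusted p = 0.0077). NUP188 lost its RDES call without RDES PlaB replicate 3 (-0.23) and its TC32 call without TC32 PlaB replicate 1 (-0.20), among other arrays. Both calls were also lost with no filter and with each line fitted alone. The RDES call of NUP188 (limma adjusted p = 0.048) was lost as well in several fits that left out an array of another line. The 5 genes were called lower in the mean under each of the 6 ways of scaling, though the mean difference of NUP188 lay anywhere between -0.47 and -0.12 and that of NUP35 between -0.70 and -0.27.

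Among the 3 repeat-rich proteins of the central channel, NUP62 rose and the other two were not called. In SKNMC the level of NUP62 was 10.45, 10.54 and 10.67 with PlaB, against 9.87, 10.02 and 10.06 with vehicle. TC32 gave levels of 10.32, 10.56 and 10.53 with PlaB, against 9.72, 9.49 and 9.71 with vehicle. The groups stood clearly apart. In TC71 the level of NUP62 was 10.10, 9.98 and 9.93 with PlaB, against 9.64, 9.40 and 9.45 with vehicle, and in RDES it was 9.62, 9.69 and 9.92 with PlaB, against 9.34, 9.51 and 9.62 with vehicle. In RDES the nearest arrays of the treatments were equal to the second decimal, and the difference of 0.26 ± 0.11 was not called (adjusted p = 0.072), although it was called at 0.32 without RDES vehicle replicate 3 or PlaB replicate 1. NUP62 rose by 0.54 ± 0.06 log2 in the mean (adjusted p = 6.9e-10), while its second tested probe gave 0.12 ± 0.06 without a call. That second probe was dim, detected on 10 of 24 arrays, which limits what it can show. NUP54 had a mean difference of 0.02 ± 0.08 (95% interval -0.13 to 0.17) and NUP58 of -0.07 ± 0.08 (-0.23 to 0.08). Both were dim, detected on 11 PlaB and 11 vehicle arrays and on 10 PlaB and 10 vehicle arrays of 12 each, which limits what their probes can show.

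In the membrane ring, NDC1, a transmembrane protein that anchors the scaffold, rose in each line. In SKNMC its level was 7.66, 7.69 and 7.65 with PlaB, against 7.16, 7.22 and 7.06 with vehicle. The TC32 arrays read 7.41, 7.37 and 7.15 with PlaB, against 6.54, 6.51 and 6.76 with vehicle. PlaB arrays were higher without overlap. TC71 arrays read 7.46, 7.68 and 7.71 with PlaB, against 7.23, 7.37 and 7.18 with vehicle for NDC1, and in RDES it was 6.86, 7.05 and 7.35 with PlaB, against 6.54, 6.43 and 6.85 with vehicle, where the nearest arrays were almost level. NDC1 rose by 0.52 ± 0.06 log2 in the mean (adjusted p = 1.4e-08), but its call was lost in each single line under median centring. The TC71 call (0.35 ± 0.12) was also lost without TC71 vehicle replicate 1 or 3 or PlaB replicate 2 or 3 (0.30 to 0.34).

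AAAS, a protein that NDC1 brings to the pore and that is mutated in Allgrove syndrome, fell by 0.47 ± 0.07 log2 in the mean (adjusted p = 1.8e-06) near the limit of detection. AAAS passed the detection filter through its vehicle groups alone, where it was higher, so its counted falls are not independent of that filter. The SKNMC arrays read 4.23, 4.77 and 4.21 with PlaB, against 5.07, 4.74 and 4.94 with vehicle. Levels in TC32 were 4.54, 4.17 and 4.35 with PlaB, against 4.62, 4.99 and 4.71 with vehicle. The groups overlapped in SKNMC and not in TC32. For AAAS the TC71 arrays read 4.42, 4.29 and 4.68 with PlaB, against 4.81, 4.61 and 5.10 with vehicle, with overlap, and in RDES it was 4.23, 4.14 and 4.17 with PlaB, against 4.58, 4.76 and 4.88 with vehicle, without overlap. AAAS was detected on 3 of 12 PlaB arrays and 12 of 12 vehicle arrays. In RDES these were 0 of 3 PlaB arrays and 3 of 3 vehicle arrays. Its difference in RDES is thus only bounded, at least 1.25-fold lower under the scaling used. Over the 6 ways of scaling the RDES difference ran from -0.59 to -0.22. The TC32 call of AAAS was lost without TC32 vehicle replicate 2 (-0.32) or PlaB replicate 2 (-0.33), and the TC71 call without TC71 vehicle replicate 1 or 3 or PlaB replicate 1 or 2 (-0.39 to -0.25). The mean difference lay between -0.57 and -0.17 over the 6 ways of scaling. The TC71 call was lost with no background correction (-0.13), an offset of 50 (-0.16) and no filter. The TC32 call was lost with centring on the always-detected probes (-0.19), under cyclic loess (-0.33), with no filter and in the series matrix made by the authors (-0.14). POM121, a transmembrane repeat protein, was called higher in the mean (0.20 ± 0.05, adjusted p = 0.0018) and, of the single lines, in SKNMC, where the difference was 0.58 ± 0.11. It was detected on 4 PlaB and 3 vehicle arrays of 12 each and not well above background in either treatment of TC32 and RDES. Its near-identical copy POM121C may share the probe's signal, so the value is uncertain.

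The response differed between lines for 13 of the 28 pore genes (limma F-test of the 4 within-line differences), beside 47.2% of all genes. Under median centring the count was 6. NUP50 had the smallest p, at 2.9e-07. Its rise was larger in SKNMC by 0.95 ± 0.15 log2 than in TC32 (adjusted p = 1.8e-05), by 1.07 ± 0.15 than in TC71 (adjusted p = 4.7e-06) and by 1.30 ± 0.15 than in RDES (adjusted p = 2.2e-07). For NUP98 the response of TC32 exceeded that of SKNMC, where the difference SKNMC minus TC32 was -0.92 ± 0.19 (adjusted p = 0.00046), and it exceeded that of RDES by 1.05 ± 0.19 (adjusted p = 0.00030). For NUP37 the difference SKNMC minus TC32 was -0.92 ± 0.17 (adjusted p = 0.00014), and for NUP35 it was -0.85 ± 0.19 (adjusted p = 0.0013). AHCTF1, on its brightest probe, rose more in SKNMC than in TC71, by 0.71 ± 0.16, and than in RDES, by 0.65 ± 0.16. By pairs of lines, with the share over all genes beside each, 6 of 28 genes differed between SKNMC and TC32 (30.3%), 7 between SKNMC and TC71 (26.3%) and 9 between SKNMC and RDES (26.7%). Between TC32 and TC71 2 differed (18.6%), between TC32 and RDES 4 (13.2%), and between TC71 and RDES 2 (12.2%). Calls in opposite directions in at least 2 lines were seen for 2 genes, NUP98 and NUP214, beside 5.25% of all genes. The largest absolute difference of a gene was in SKNMC for 9 genes, in RDES for 9, in TC32 for 6 and in TC71 for 4.

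**Figure D5:**
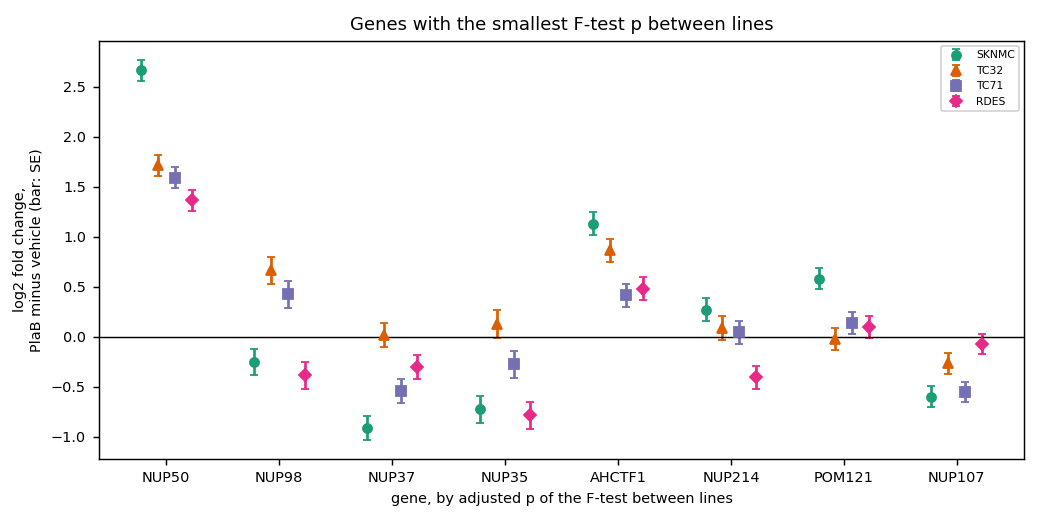
Log2 fold change (PlaB minus vehicle, bars show the standard error) in each line for the 8 pore genes with the smallest F-test p between lines, ordered by that p. NUP50 is highest in SKNMC at 2.66, and NUP98 lies above 0 in TC32 and TC71 and below 0 in SKNMC and RDES.

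Transport receptors and the Ran cycle, which move cargo through the pore, were measured beside it, with 33 of 35 listed genes tested. In the mean 16 rose and 13 fell, beside 32.3% and 37.9% of all genes, with a median difference of 0.088 log2, beside -0.030 over all genes. The exportin XPO7 rose by 0.81 ± 0.06 log2, the importin KPNA1 by 0.73 ± 0.07, the import receptor TNPO3, which carries splicing factors, by 0.65 ± 0.06, and the export cofactor RANBP3 by 0.53 ± 0.05. CSE1L, which returns importin alpha to the cytoplasm, fell by 1.39 ± 0.05 log2 (adjusted p = 6.1e-20) and in every line. The import receptor IPO4 was at -0.66 ± 0.06, XPO4 at -0.61 ± 0.05 and XPO5, which exports precursor microRNAs, at -0.61 ± 0.05, each called lower. NUP50 and CSE1L act on the same cargo carrier, importin alpha. Of the 6 importin alpha genes tested 4 rose, 1 fell and 1 was not called, beside the 32.3% and 37.9% of all genes. In single lines 4 rose in SKNMC (26.3% of all genes), 2 in TC32 (21.6%), 3 in TC71 (22.9%) and 2 in RDES (21.4%). Of 11 importin beta genes 5 rose and 6 fell, and of 7 exportins 3 rose and 3 fell. Of 6 Ran cycle genes 3 rose and 1 fell, and of the remaining 3 tested 1 rose and 2 fell. A link of these genes to NUP50 was not tested. Of 10 genes of the nuclear lamina and inner membrane, which line the envelope around the pores, 4 rose and 5 fell, where 70.1% of all genes were called. LEMD3 rose by 0.82 ± 0.07 log2, BANF1 by 0.37 ± 0.06, TMPO by 0.31 ± 0.07 and LMNB2 by 0.30 ± 0.06, while EMD stood at -0.41 ± 0.06, SUN2 at -0.33 ± 0.06, LBR at -0.28 ± 0.06 and LMNB1 at -0.26 ± 0.06, each called lower. LBR was called higher, at 0.35, where all its tested probes were averaged. Under median centring the counts were 7 transport factors higher and 16 lower, and 2 lamina genes higher and 6 lower.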

How the data were processed

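Total RNA of 24 samples (4 lines, PlaB and vehicle, 3 arrays each) was hybridised to Illumina beadchips. The deposited table holds, per the file headers, a non-normalized probe intensity per array and beside it a detection p-value. The deposited series matrix holds log2 values made by the authors. GenomeStudio, lumi and R 3.0.2 are named in the submitters' processing notes. Which chip held which array is not given in the sources used here. Series matrix values were within 0.03 log2 of the intensities, quantile-normalized within a line, for 99.996% of probes in TC32, 36.358% in SKNMC, 75.201% in TC71 and 36.364% in RDES, so the matrix was an alternative in TC32 alone.

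Intensities were background-corrected with an offset of 16 and quantile-normalized (neqc, limma 3.58.1 in R 4.3.3). Probes entered the test where at least 1 of the 8 groups had a detection p under 0.05 on each of its 3 arrays. Symbols came from the array annotation: it gave 1 symbol for 30112 probes, several for 8 and no symbol for 17203. A group-means model was fitted to all 24 arrays (16 residual and 13.7 prior degrees of freedom), with contrasts within each line, their mean and an F-test between lines, and the fit was tested on simulated data. The genes of the pore, the transport factors, the lamina and the marker lists were chosen with earlier results of these data known. All pore genes are named. Array values are given for the 6 largest rises and 6 largest falls in the mean, for genes called in opposite directions in 2 lines and for the largest mean change of each subcomplex. Of the other lists the 4 largest rises and falls among called genes are named. Of the other lists, 2 transport factors and 1 blood cell marker were not analysed here. A planned count of phenylalanine-glycine pairs was not run, since no protein sequences were used here. Files name no genome build, so gene positions are given only for RefSeq promoter stretches. Alternatives were other background corrections and scalings, other filters, averaging a gene's probes, fitting each line alone, a block for the replicate number, the series matrix and leaving out each array.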

Additional observations from a re-analysis of the deposited data

Results flagged for a closer look

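These genes are listed because the response to PlaB differed between the 4 lines by limma's F-test, adjusted over all tested probes. The test's adjusted p was 2.9e-07 for NUP50, 5.7e-05 for NUP98, 0.00053 for NUP37, 0.00086 for NUP35, 0.0017 for AHCTF1 and 0.0084 for NUP214. It was 0.0097 for POM121, 0.0098 for NUP107, 0.011 for NUP93, 0.014 for NUP160, 0.03 for NUP62, and 0.042 for each of RAE1 and NUP153. Among the transport factors named, it was 4.2e-06 for XPO4, 2.8e-05 for XPO5, 0.00032 for IPO4, 0.00057 for CSE1L, 0.012 for KPNA1 and 0.015 for TNPO3, and among the lamina genes 0.00041 for SUN2. The cell lines also differ in many other genes, at 47.2% of all genes by the same test.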

How the results depend on the processing

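For the pore genes' differences, 1249 of 1375 values recomputed under another setting kept their sign and their side of the threshold, 63 lost a call, 17 gained one, 14 changed sign with a call in at least 1 of the settings, and 32 changed sign with a call in neither. With 1 array left out, 3208 of 3360 kept both, 97 lost a call, 6 gained one, 49 changed sign with a call in neither and 0 changed sign with a call. Median centring called fewer pore genes higher: 7 in the mean of the lines, 7 in SKNMC, 6 in TC32, 3 in TC71 and 4 in RDES. It also called 7 transport factors and 2 lamina genes higher, and 6 pore genes as different between lines, against 13 with the quantile scaling used. Cyclic loess called 5 pore genes higher in TC71. Under median centring the sign turned for SEH1L (-0.051 in the mean, -0.0044 in TC32), NUP214 (-0.27 in the mean, -0.053 in SKNMC) and NUP37 in TC32 (-0.36). In the mean it also turned for IPO7 (-0.055), IPO13 (-0.13), TNPO1 (-0.0073), XPO6 (-0.10), XPOT (-0.0538), RANBP1 (-0.18), NUTF2 (-0.21), DDX19A (-0.057) and SUN1 (-0.16). Averaging all tested probes of a gene gave SEH1L -0.36 in the mean, -0.50 in SKNMC, -0.33 in TC32, -0.33 in TC71 and -0.28 in RDES. It gave AHCTF1 -0.20 in the mean, -0.0030 in SKNMC, -0.46 in TC71 and -0.35 in RDES, RAN -0.21 and LBR 0.35 in the mean. These turns come with averaging in probes that moved the other way, and the cause of the others was not tested. With 1 array left out, the pore genes called lower in TC32 numbered 5 to 8, those called higher in TC71 4 to 9 and in RDES 5 to 9.

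The labels number the samples 1 to 3 in each group without saying what a number shares. Deviations of same-numbered samples correlated at -0.0414 to 0.0537 over 12 pairs, 0 of them over 0.1, so the numbers were not taken as pairs. With the replicate number as a block, 23 pore genes were called in the mean (11 higher and 12 lower) and 11 differed between lines. The block ended the calls of NUP214 in SKNMC (0.27, adjusted p = 0.057) and NUP107 in TC32 (-0.27, adjusted p = 0.066) and no other call of a pore gene within a line or in the mean. Dim probes limit NUP43, NUP54, NUP58, POM121 and AAAS, whose signals lie near background. NUP98 was dim as well, though its read probe was detected on 24 of 24 arrays.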
